A study of Homo sapiens with 24 samples.

Results

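The 32 genes described here encode amino acid transporters of the plasma membrane and the lysosome. They were taken by name from 7 solute carrier families (SLC1, SLC3, SLC6, SLC7, SLC36, SLC38 and SLC43), with earlier results of these data known, and all 32 were found among the 60675 genes counted in every library. RNA was measured as fragment counts per gene in 24 RNA-seq libraries from 2 human prostate cancer cell lines. In each line a pool of siRNAs against METTL3 (siMETTL3), the catalytic subunit of the RNA m6A methyltransferase, or a non-targeting pool (siSCR) was combined with the synthetic androgen R1881 or with ethanol as vehicle, giving 8 conditions of 3 libraries each. LNCaP:C4-2 is a castration-resistant derivative of LNCaP, and 22Rv1 is a castration-resistant line that also expresses truncated androgen receptor variants.

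All 8 groups were grown in phenol-red-free medium with charcoal-stripped serum, were transfected, were transfected again 48 h later, and received 1 nM R1881 or ethanol with the second transfection for 72 h. The groups are therefore siSCR with vehicle, siSCR with R1881, siMETTL3 with vehicle and siMETTL3 with R1881, once in LNCaP:C4-2 and once in 22Rv1, and the siSCR groups carry the same transfections as the knockdown groups. Each condition rests on 1 siRNA pool and 1 line, and nothing states that the 3 libraries of a condition came from separate cultures, so the p-values measure only the spread between these libraries. In bulk RNA, fewer cells expressing a gene and less of its RNA per cell cannot be told apart.

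Amino acid transporters set which nutrients a cell can take up, exchange or release from the lysosome. The heavy chain SLC3A2 carries several SLC7 light chains to the cell surface, among them the leucine and glutamine exchanger SLC7A5 and the cystine and glutamate exchanger SLC7A11, whereas SLC43A1 lets leucine and other neutral amino acids through without a heavy chain. SLC1A5 and the SLC38 family bring in glutamine and small neutral amino acids, and the lysosomal members SLC38A9 and SLC36A1 act close to mTORC1, the kinase complex that senses amino acids. SLC43A1 is known in the prostate as an androgen-responsive gene. A few of the 32 have other main substrates: SLC6A6 carries taurine, SLC6A8 creatine and SLC43A3 purine nucleobases.

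The libraries held 15716224 to 21306019 fragments assigned to genes, with a median of 17671721.5, so 3 fragments, used here as the detection floor, correspond to 0.141 to 0.191 CPM, counts scaled to library size. METTL3 itself was lower with siMETTL3 than with siSCR in all 4 pairs of groups: 19.03 ± 1.36 against 28.7 ± 2.35 CPM (mean ± SD, n = 3) in LNCaP:C4-2 with vehicle, 22.4 ± 0.37 against 33.4 ± 2.67 with R1881, 24.9 ± 0.72 against 46.2 ± 0.69 in 22Rv1 with vehicle and 22.4 ± 2.01 against 50.4 ± 1.46 with R1881. The 3 against 3 libraries did not overlap in any pair, and the exact two-sided permutation p of 0.1 is the smallest that this design can give. FKBP5, an androgen-induced gene, rose with R1881 in both lines (siSCR log2 fold change 3.49 in LNCaP:C4-2 and 3.33 in 22Rv1), whereas the log2 fold change of KLK3 was 4.08 in LNCaP:C4-2 and -0.01 in 22Rv1. That of TMPRSS2, the other androgen-induced gene checked, was 4.26 in LNCaP:C4-2 and -0.40 in 22Rv1. Luminal markers were present in every library, with a summed level of 2592 to 3603 CPM for 7 genes in LNCaP:C4-2 and 1224 to 1385 CPM in 22Rv1, while basal markers summed to at most 1.03 CPM and leukocyte markers to at most 1.74 CPM. The neuroendocrine markers summed to 78.3 to 120.0 CPM in 22Rv1, nearly all from SYP, and to 0.956 to 2.79 CPM in LNCaP:C4-2. The fibroblast markers summed to 16.5 to 71.9 CPM, mainly COL1A1.

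Among the LNCaP:C4-2 libraries, 2 stood apart from their replicates. Replicate 1 of siMETTL3 with vehicle and replicate 1 of siSCR with R1881 differed from their replicates by a chi-square per gene of 38.5 and 41.7 and of 30.5 and 30.8, against 4.11 and 3.05 between the other replicates of the same groups. Their count-weighted GC content was 48.5% against 50.04% and 49.7% against 48.5% in the same order, and METTL3, KLK3 and FKBP5 in both followed the labels. Counts of members called that changed without these libraries are given with and without them, an alternative chosen after the data were seen. For the other gene lists only some such changes are given. Smaller gaps of the same kind were found in vehicle groups of both lines. In 22Rv1, replicate 1 of siMETTL3 with vehicle differed from its replicates by 17.61 and 16.19, against 3.781 between the others. Replicate 3 of siSCR with vehicle differed by 16.68 and 11.77 in 22Rv1, against 3.503, and by 10.31 and 10.74 in LNCaP:C4-2, against 3.353. The libraries with smaller gaps were left out singly and not together.

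The level of each gene was expressed per kilobase of exon and scaled for library depth (RPKM), the only scale on which levels are compared between genes. In siSCR cells with vehicle, 11 members in LNCaP:C4-2 and 13 in 22Rv1 had a mean of at least 10 RPKM. SLC7A5 had the highest mean level in both lines, at 102 ± 2.53 RPKM (SD, n = 3) in LNCaP:C4-2 and 699.9 ± 57.3 RPKM in 22Rv1. The 5 leading members of LNCaP:C4-2 were SLC7A5, the arginine and lysine transporter SLC7A1, SLC6A8, the starvation-inducible SLC38A2 and the glutamine transporter SLC1A5, which together made up 62.6% of the summed member level. In 22Rv1, SLC7A5, SLC3A2, SLC38A2, SLC1A5 and SLC38A1 led with 84.9%. At the other end, 7 members stayed under 1 RPKM in every library of each line: SLC7A7, SLC38A3, SLC38A5, SLC1A2, SLC6A14 and SLC3A1 in both, with SLC43A3 in LNCaP:C4-2 and SLC36A4 in 22Rv1. SLC6A14 never passed 2 counts.

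**Figure D1:**
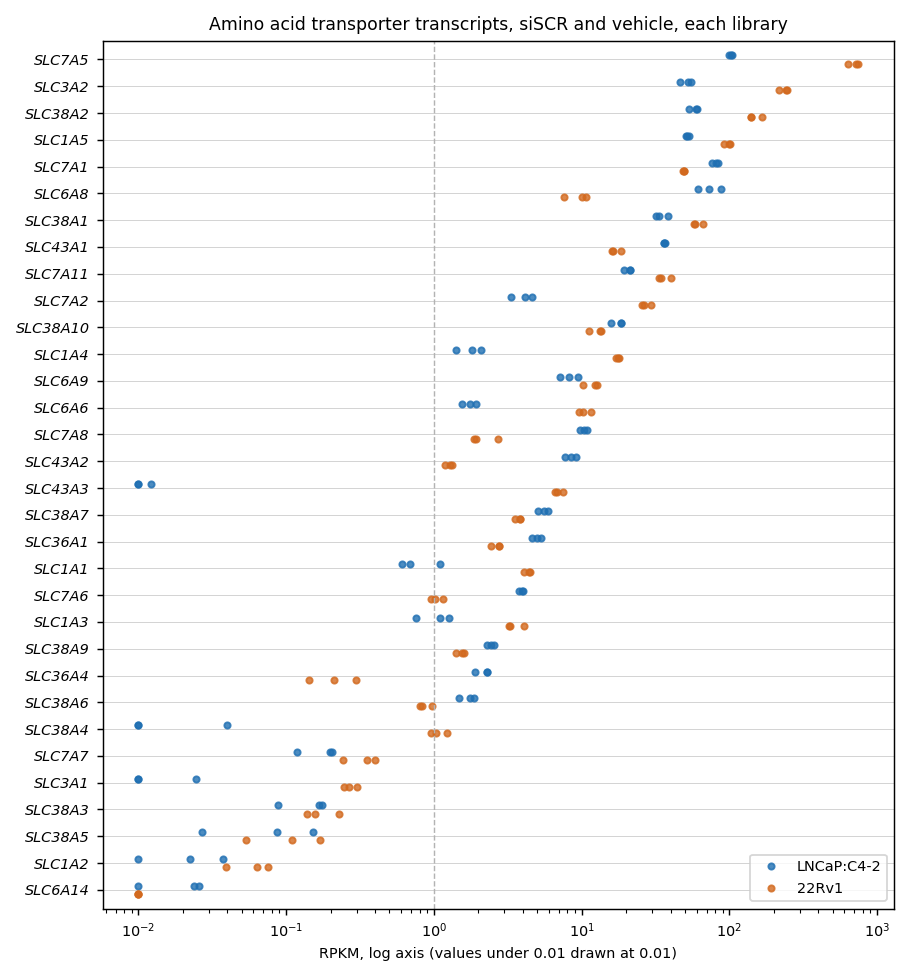
Level of the 32 members in siSCR cells with vehicle (RPKM, log axis, values under 0.01 drawn at 0.01), 1 row per gene and 1 colour per cell line, with a point for each of 3 libraries. SLC7A5 lies farthest right in both lines, near 102 RPKM in LNCaP:C4-2 and near 699.9 RPKM in 22Rv1, and SLC36A4, SLC6A8 and SLC43A2 lie lower in 22Rv1.

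The lines differed in the levels of transporter transcripts in cells that received vehicle. A gene was called where the Benjamini-Hochberg adjusted p of edgeR's quasi-likelihood test over all genes was under 0.05 and the fold was at least 1.5. Of 31 members tested, 26 were called between 22Rv1 and LNCaP:C4-2 in siSCR cells with vehicle, 16 higher and 10 lower in 22Rv1, where 59.2% of all genes tested were called. The median log2 fold change was 0.81 over the members and 0.03 over all genes. The libraries of 22Rv1 had a count-weighted GC content of 47.5% to 49.0% and those of LNCaP:C4-2 of 48.5% to 50.3%. The effect of an offset for GC content on single members is given below.

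The heavy chain and its main partner were both far higher in 22Rv1. SLC7A5 had 105, 103 and 99.5 RPKM in the 3 LNCaP:C4-2 libraries and 746, 717 and 636 RPKM in the 3 of 22Rv1. SLC3A2 had 52.3, 55.2 and 46.6 RPKM against 242, 244 and 217 RPKM. Every 22Rv1 library exceeded every LNCaP:C4-2 library for both genes, by 6.84-fold for SLC7A5 (log2 fold change 2.77, SE 0.10, adjusted p = 7.79e-19) and by 4.56-fold for SLC3A2 (log2 fold change 2.19, SE 0.10, adjusted p = 7.84e-17). Of the other SLC7 light chains that pair with SLC3A2, SLC7A8, a neutral amino acid exchanger, and SLC7A6, which exchanges cationic for neutral amino acids, went the other way. SLC7A8 had 9.72, 10.8 and 10.3 RPKM in LNCaP:C4-2 and 2.73, 1.92 and 1.86 RPKM in 22Rv1, and SLC7A6 had 3.98, 3.93 and 3.75 against 1.15, 1.02 and 0.955 RPKM, log2 fold changes of -2.24 ± 0.15 and -1.90 ± 0.12 (± SE, adjusted p = 5.62e-13 and 9.69e-14). SLC7A6 shares 44.4% of its exon bases with SLC7A6OS on the other strand, and fragments were counted without strand and dropped where they met both genes. SLC7A11 had 19.4, 21.2 and 21.3 RPKM against 33.6, 34.6 and 40.4 RPKM, a log2 fold change of 0.81 ± 0.10, but only 0.07 (adjusted p = 0.3) with the GC offset.

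The glutamate and neutral amino acid carriers of the SLC1 family were all higher in 22Rv1. SLC1A5 had 51.9, 53.7 and 50.6 RPKM in LNCaP:C4-2 and 98.7, 101 and 92.1 RPKM in 22Rv1, and its relative SLC1A4, a carrier of serine and alanine, had 2.08, 1.802 and 1.41 against 17.5, 17.7 and 17.2 RPKM. No library of one line reached the level of the other for either gene (1.87-fold for SLC1A5 and 9.89-fold for SLC1A4, adjusted p = 8.98e-10 and 2.29e-18). The glutamate transporters SLC1A1, SLC1A3 and SLC1A2 were 5.38-fold, 3.395-fold and 2.58-fold higher in 22Rv1 (adjusted p = 7.01e-12, 5.13e-10 and 0.0258). SLC1A2 stayed under 1 RPKM in both lines, and its call was lost with the GC offset (log2 fold change 0.79, adjusted p = 0.173) and without LNCaP:C4-2 replicate 1 or 2 (1.39 and 1.01, adjusted p = 0.0531 and 0.12) or 22Rv1 replicate 1 or 3 (1.34 and 1.22, adjusted p = 0.0526 and 0.0794).

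The remaining members split between the lines. The cationic transporters moved apart: SLC7A2 had 4.13, 3.35 and 4.58 RPKM in LNCaP:C4-2 and 25.5, 26.5 and 29.3 RPKM in 22Rv1, whereas SLC7A1 had 75.97, 80.5 and 84.2 against 49.5, 49.2 and 48.7 RPKM. SLC6A6 was 5.99-fold higher and SLC6A8 7.81-fold lower in 22Rv1 (adjusted p = 2.2e-12 and 8.05e-14). Of the SLC43 family, SLC43A1 and SLC43A2, both facilitators of neutral amino acids, were 2.14-fold and 6.64-fold lower in 22Rv1 (adjusted p = 1.02e-12 and 2.55e-16). SLC43A3 had 1, 0 and 0 counts in LNCaP:C4-2 and 6.82, 6.597 and 7.49 RPKM in 22Rv1, at least 189-fold higher against the floor of 3 counts in a library. SLC43A3 shares 29.9% and SLC1A5 23.4% of its exon bases with a gene that has only an identifier, ENSG00000254979 and ENSG00000275719. The proton-coupled SLC36A1 and SLC36A4 were 1.87-fold and 9.91-fold lower in 22Rv1, with adjusted p of 1.32e-08 and 8.77e-14. In the SLC38 family, SLC38A4 was at least 26.6-fold, SLC38A2 2.58-fold and SLC38A1 1.75-fold higher in 22Rv1, and SLC38A6 and the lysosomal arginine sensor SLC38A9 were 1.96-fold and 1.605-fold lower. With the GC offset the log2 fold change of SLC38A1 fell under the fold threshold (0.29), and with scaling by library size alone so did those of SLC38A9 (-0.53) and SLC7A1 (-0.56). SLC3A1, the heavy chain of the cystine transporter, was at or under the floor in all LNCaP:C4-2 vehicle libraries and at least 10.7-fold higher in 22Rv1. It shares 29.4% of its exon bases with PREPL. The glycine transporter SLC6A9 and the members SLC38A3, SLC38A5, SLC38A7 and SLC38A10 were not called. SLC38A10 had 18.4, 18.6 and 15.9 RPKM in LNCaP:C4-2 and 13.5, 13.3 and 11.2 RPKM in 22Rv1, SLC6A9 had 9.43, 8.19 and 7.14 against 12.7, 12.4 and 10.2 RPKM and SLC38A7 had 5.53, 5.96 and 5.06 against 3.81, 3.83 and 3.56 RPKM. SLC7A7, the last called member, was 1.896-fold higher at under 1 RPKM (adjusted p = 0.0149), and its call was lost without LNCaP:C4-2 replicate 1 (log2 fold change 0.75, adjusted p = 0.0681) or 22Rv1 replicate 2 (0.80, adjusted p = 0.0587).

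Which transporters responded to androgen was asked in siSCR cells first. In LNCaP:C4-2, 7 of 29 members tested rose with R1881 and none fell, where 15.1% of all genes were called. The lower side of this count depended on single libraries, on the scaling and on the fold threshold. Without replicate 1 of siSCR with R1881, 7 of 30 members were higher and 5 lower (14.6% of all genes called). With scaling by library size alone 7 of 29 were higher and 4 lower (16.6% of all genes). Without replicate 3 of siSCR with vehicle, SLC1A4 and SLC6A9 were called lower (-0.63 and -0.60, adjusted p = 0.0214 and 0.0494). In 22Rv1, 3 of 30 rose and 2 fell, against 13.8% of all genes. SLC3A1, SLC6A14 and SLC43A3 were too low to be tested in LNCaP:C4-2, as were SLC6A14 and SLC38A5 in 22Rv1. With siMETTL3 the counts were 5 of 29, all higher, in LNCaP:C4-2 (10.6% of all genes) and 5 of 30, 3 higher and 2 lower, in 22Rv1 (13.5% of all genes). At the adjusted p alone, without the fold, 13 of 29 members passed with siSCR in LNCaP:C4-2, 9 higher and 4 lower. So did 12 of 30 with siSCR in 22Rv1 and 15 of 30 with siMETTL3 in 22Rv1. The shares of all genes were 24.8%, 33% and 33.1% in that order. The summed level of all 32 members was 584 ± 15.2 RPKM with vehicle and 758 ± 80.7 RPKM with R1881 in siSCR LNCaP:C4-2 cells, and 1462 ± 55.02 and 1637 ± 14.04 RPKM in siSCR 22Rv1 cells (SD, n = 3). The median log2 fold change with siSCR was 0.10 over the members and -0.03 over all genes in LNCaP:C4-2, and 0.0327 and 0.0021 in 22Rv1. Over the 4 comparisons 11 members were called at least once, a count for which the share of all genes is not given. In all 4 comparisons 3 were called, namely SLC43A1, SLC38A4 and SLC7A8. SLC43A1 and SLC38A4 rose in all 4, as did 120 of the 14985 genes tested in both lines, while 169 of these genes fell in all 4. The comparisons with siSCR and siMETTL3 within a line have no library in common.

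**Figure D2:**
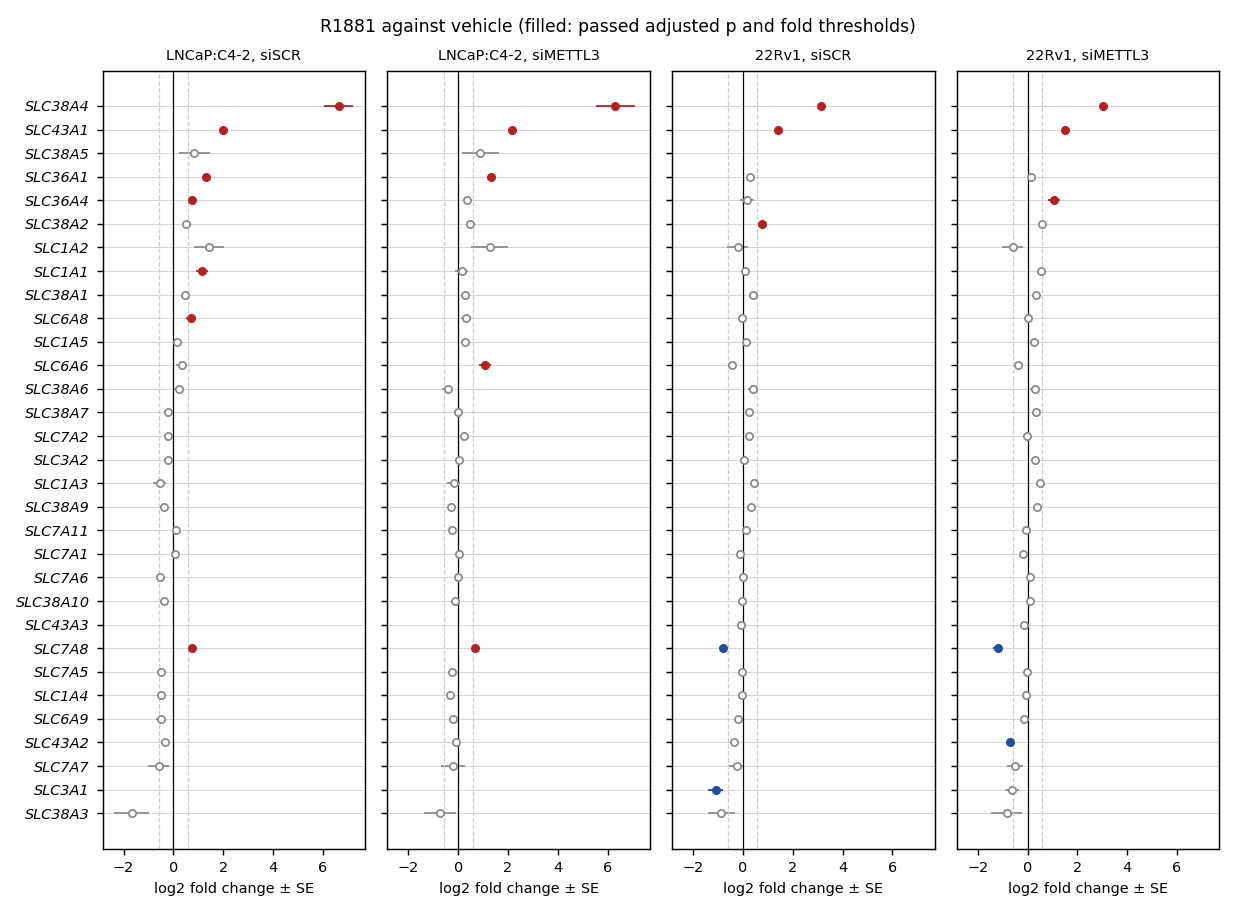
Log2 fold change of R1881 against vehicle for the members tested, in 4 comparisons (2 lines, siSCR and siMETTL3), with bars of 1 SE and filled points for called genes. SLC38A4 and SLC43A1 lie right of zero in all 4 comparisons, and SLC7A8 lies right of zero in LNCaP:C4-2 and left of it in 22Rv1.

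SLC43A1 (chr11:57484534-57515786, minus strand, GRCh38) was the strongest responder among the abundant members. In siSCR LNCaP:C4-2 cells it had 36.01, 36.3 and 36.8 RPKM with vehicle and 156, 138 and 140.4 RPKM with R1881. In siSCR 22Rv1 cells it had 16.4, 18.5 and 16.05 RPKM with vehicle and 45.8, 46.2 and 45.4 RPKM with R1881. All R1881 libraries of a line lay far above all its vehicle libraries, 3.96-fold in LNCaP:C4-2 (log2 fold change 1.98, SE 0.09, adjusted p = 2.37e-10) and 2.69-fold in 22Rv1 (log2 fold change 1.43, SE 0.07, adjusted p = 1.19e-12). With siMETTL3 the levels were 31.5, 31.1 and 31.3 RPKM with vehicle and 143, 149 and 125 RPKM with R1881 in LNCaP:C4-2, and 17.1, 15.4 and 16.4 and 46.9, 45.7 and 46.3 RPKM in 22Rv1. The groups again did not overlap, by 2.16 ± 0.09 and 1.49 ± 0.07 on the log2 scale (adjusted p = 1.33e-10 and 5.71e-13).

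SLC38A4, a sodium-coupled carrier of small neutral amino acids and an imprinted gene in other tissues, had the largest fold. In siSCR LNCaP:C4-2 cells it had 3, 0 and 0 counts with vehicle and 78, 128 and 112 counts, or 1.11, 1.99 and 1.43 RPKM, with R1881. In siSCR 22Rv1 cells it had 0.952, 1.03 and 1.22 RPKM with vehicle and 8.83, 9.97 and 9.61 RPKM with R1881. The gene thus went from the detection floor to a low level in LNCaP:C4-2 and from a low to a moderate level in 22Rv1. The rise was at least 37.6-fold in LNCaP:C4-2, against 3 counts per vehicle library (adjusted p = 6.01e-07), and 8.82-fold in 22Rv1 (log2 fold change 3.14, SE 0.11, adjusted p = 4.45e-15). With siMETTL3 it had 1, 0 and 0 counts with vehicle and 38, 24 and 47 counts with R1881 in LNCaP:C4-2, at least 11.9-fold (adjusted p = 3.27e-05), and it rose 8.14-fold in 22Rv1 (adjusted p = 1.11e-14).

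SLC38A4 is 1 of 3 SLC38 genes that lie next to each other on the minus strand of chromosome 12 (SLC38A1 at chr12:46183063-46270017, SLC38A2 at chr12:46358189-46372867 and SLC38A4 at chr12:46764761-46832408, GRCh38). SLC38A2 in siSCR 22Rv1 cells had 139, 139 and 167 RPKM with vehicle and 253, 242 and 260.1 RPKM with R1881. In LNCaP:C4-2 it had 59.5, 53.1 and 59.9 RPKM and 78.7, 78.9 and 87.2 RPKM. R1881 libraries were higher than vehicle libraries without overlap in both lines, but only the change in 22Rv1 reached the fold threshold (log2 fold change 0.76, SE 0.07, adjusted p = 5.98e-08, against 0.50, SE 0.11, adjusted p = 0.00453 in LNCaP:C4-2). With siMETTL3 the log2 fold changes of SLC38A2 were 0.58 ± 0.07 in 22Rv1 and 0.46 ± 0.11 in LNCaP:C4-2, both under the threshold (adjusted p = 2.98e-06 and 0.0103). In LNCaP:C4-2 this change passed it without both libraries that stood apart (0.60, adjusted p = 1.09e-05), without siMETTL3 vehicle replicate 1 alone (0.60) and with the GC offset (0.59). In 22Rv1 it passed with the GC offset and without the filter on low counts (0.59 in both), and without replicate 1 of siMETTL3 with vehicle (0.64) or with R1881 (0.62). In the fit without both, 7 of 30 members were called with siMETTL3 in LNCaP:C4-2, all higher, where 11.4% of all genes were called, and the 2 added were SLC38A2 and the very low SLC1A2 (2.64, adjusted p = 0.0487, against 1.27, adjusted p = 0.273, with all libraries). SLC38A1, the third neighbour, had 31.98, 33.4 and 38.6 RPKM with vehicle and 43.5, 48.4 and 51.3 RPKM with R1881 in LNCaP:C4-2, and 57.4, 58.1 and 66.6 and 80.96, 82.7 and 81.4 RPKM in 22Rv1. Its log2 fold changes of 0.45 ± 0.11 and 0.42 ± 0.06 passed the adjusted p (0.00661 and 3.02e-05) and not the fold.

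Promoter windows were searched because several members moved with androgen. The windows run from 250 bases before to 50 after each RefSeq transcript start (GRCh38.p14), and 46 windows of 25 of the 32 members were found among 35116. The androgen receptor half-site, written AGAACA and sought on both strands, stood in 4 member windows (8.7%), against 14.8% of all windows. The full palindrome of the androgen response element with its 3-base spacer stood in 0 member windows and in 1 of all. The half-sites are shown in capitals, along the strand of the gene, with their position in GRCh38.p14.
SLC38A4, chr12:46826076-46826103: ggataggtcgcTGTTCTgtctgcaatgt
SLC38A1, chr12:46268117-46268144: gggcgcgaccgTGTTCTgggagtgtttg
SLC36A4, chr11:93197405-93197432: gaagttatcatTGTTCTgcttttcaaat
SLC7A7, chr14:22815928-22815955: agagttctcttAGAACAcccagtcacat
SLC38A4 was called in all 4 R1881 comparisons and SLC36A4 in 2 of them, whereas SLC38A1 and SLC7A7 were called in none and SLC43A1, which was, had no half-site in its windows. The second motif, TGATGNAA on both strands, is the short form of the element through which ATF4 acts when amino acids are scarce. It stood in 6 member windows (13%), against 3.62% of all windows. It is shown in capitals in the same way, for members whose level was compared above.
SLC3A2, chr11:62881725-62881748: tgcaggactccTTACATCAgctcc
SLC1A4, chr2:64989381-64989410: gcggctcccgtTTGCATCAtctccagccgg
SLC1A5, chr19:46784893-46784922: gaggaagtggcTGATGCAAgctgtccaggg
SLC7A1, chr13:29595663-29595692: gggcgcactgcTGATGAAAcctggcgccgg
SLC38A1, chr12:46266502-46266531: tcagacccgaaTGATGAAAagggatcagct
SLC1A3, chr5:36596357-36596386: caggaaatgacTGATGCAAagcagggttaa
None of these 6 genes was called with R1881 in siSCR cells in the main fit. In LNCaP:C4-2, SLC1A4 was called lower with library size alone (-0.61) and without both libraries that stood apart (-0.63). The same held without siSCR R1881 replicate 1 (-0.64) or siSCR vehicle replicate 3 (-0.63). Between the lines, SLC3A2, SLC1A4, SLC1A5, SLC1A3 and SLC38A1 were higher and SLC7A1 lower in 22Rv1 than in LNCaP:C4-2. There the call of SLC38A1 was lost with the GC offset and that of SLC7A1 with library size alone. A match is a run of letters and not a measured binding site.

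SLC7A8 (chr14:23125295-23183674, GRCh38) responded in opposite directions in the 2 lines. In siSCR LNCaP:C4-2 cells it had 9.72, 10.8 and 10.3 RPKM with vehicle and 19.8, 16.9 and 15.2 RPKM with R1881. In siSCR 22Rv1 cells it had 2.73, 1.92 and 1.86 RPKM with vehicle and 1.32, 1.45 and 1.06 RPKM with R1881. The groups did not overlap in either line, with R1881 above vehicle in LNCaP:C4-2 and below it in 22Rv1. It rose 1.67-fold in LNCaP:C4-2 (log2 fold change 0.74, SE 0.11, adjusted p = 0.000139) and was 1.72-fold lower in 22Rv1 (log2 fold change -0.78, SE 0.18, adjusted p = 0.00167). Without replicate 1 of siSCR with vehicle in 22Rv1, the highest of its group, the change was -0.58 (adjusted p = 0.0178) and no longer reached the fold. With siMETTL3 it went from 9.57, 10.2 and 10.2 to 16.5, 17.4 and 14.1 RPKM in LNCaP:C4-2 and from 2.37, 2.74 and 2.09 to 0.945, 1.395 and 0.869 RPKM in 22Rv1. These are a rise of 1.61-fold and a 2.29-fold lower level (adjusted p = 0.000341 and 2.17e-05). Of all genes tested in both lines, 99 were called in opposite directions with siSCR.

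The lysosomal and plasma membrane carriers SLC36A1 and SLC36A4, which move small neutral amino acids and, for SLC36A4, proline and tryptophan, rose in siSCR LNCaP:C4-2 cells. SLC36A1 had 4.58, 4.97 and 5.28 RPKM with vehicle and 13.5, 12.5 and 11.3 RPKM with R1881, 2.4997-fold higher (log2 fold change 1.32, SE 0.11, adjusted p = 2.01e-07). With siMETTL3 it had 4.88, 4.301 and 4.66 and 12.4, 11.4 and 10.4 RPKM, 2.49-fold higher (adjusted p = 2.54e-07). The groups were far apart in both pairs. In siSCR 22Rv1 cells SLC36A1 had 2.75, 2.41 and 2.77 and 3.24, 3.24 and 3.17 RPKM, a log2 fold change of 0.28 ± 0.10 under the threshold (adjusted p = 0.0398). SLC36A4 had 2.28, 1.89 and 2.29 RPKM with vehicle and 3.41, 3.5002 and 4.09 RPKM with R1881 in siSCR LNCaP:C4-2 cells, without overlap (log2 fold change 0.76, SE 0.13, adjusted p = 0.000552). With siMETTL3 its change in LNCaP:C4-2 was 0.34 ± 0.13 on the log2 scale (adjusted p = 0.0899). In 22Rv1 it was low throughout, 0.309, 0.177 and 0.132 RPKM with siMETTL3 and vehicle and 0.396, 0.4405 and 0.463 RPKM with siMETTL3 and R1881, 2.09-fold higher (adjusted p = 0.00321). The lysosomal SLC38A9 went from 2.43, 2.29 and 2.56 to 1.69, 2.02 and 1.85 RPKM in siSCR LNCaP:C4-2 cells and from 1.41, 1.59 and 1.54 to 1.799, 1.92 and 1.999 RPKM in siSCR 22Rv1 cells. These log2 fold changes of -0.40 ± 0.11 and 0.33 ± 0.10 passed the adjusted p (0.0189 and 0.0166) and not the fold.

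**Figure D3:**
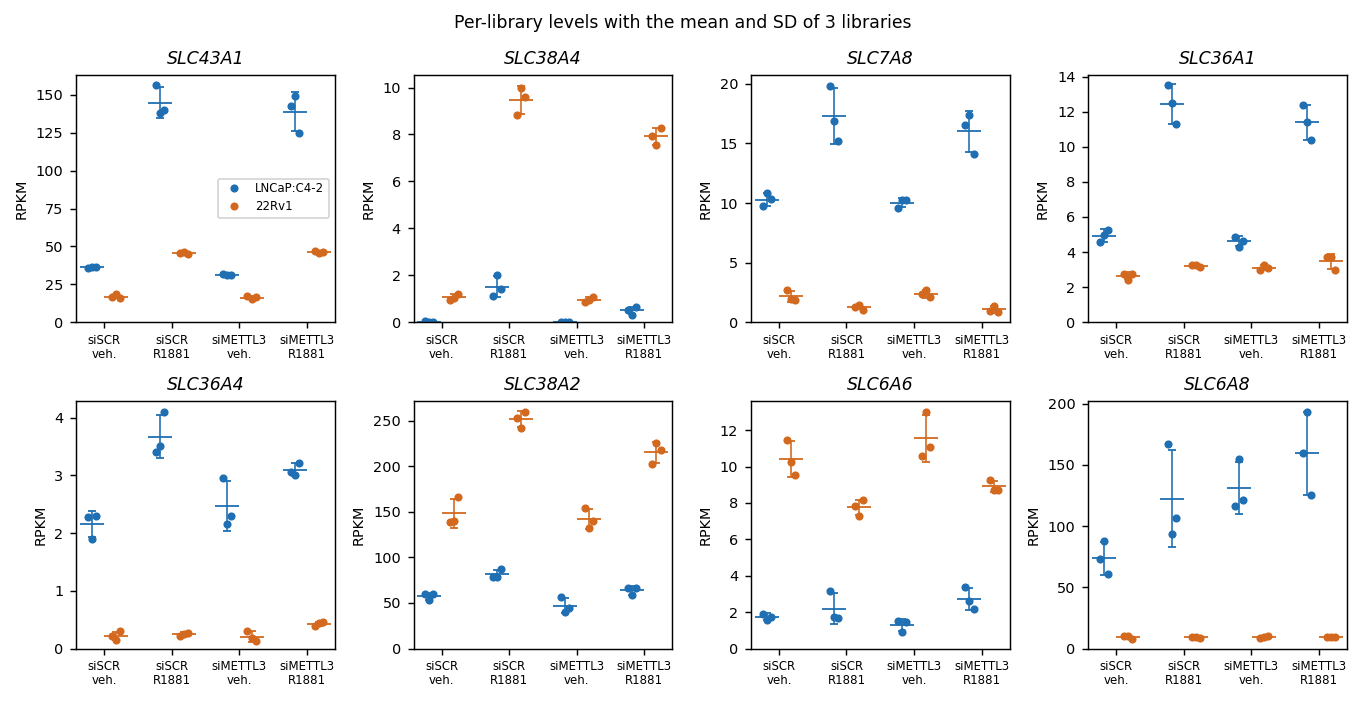
Level of 8 members in each of the 24 libraries (RPKM, linear axis, 1 panel per gene), by siRNA and treatment, with 1 colour per line, a point per library and bars for the mean and SD of 3 libraries. SLC43A1 with R1881 sits between 125 and 156 RPKM in LNCaP:C4-2 and between 45.4 and 46.9 RPKM in 22Rv1, above every vehicle library of the same line.

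Among the glutamate, taurine and creatine carriers, SLC1A1, SLC6A8 and SLC6A6 were each called in 1 of the 4 R1881 comparisons in the main fit, always in LNCaP:C4-2. SLC1A1 in siSCR LNCaP:C4-2 cells had 0.6901, 1.101 and 0.608 RPKM with vehicle and 2.07, 1.55 and 1.72 RPKM with R1881, 2.204-fold higher without overlap (log2 fold change 1.14, SE 0.25, adjusted p = 0.0033). With siMETTL3 the ranges overlapped, at 1.402, 1.298 and 0.853 and 1.195, 1.59 and 1.07 RPKM. In 22Rv1 with siMETTL3 it had 3.87, 3.13 and 3.21 and 4.73, 4.74 and 5.46 RPKM, a log2 fold change of 0.53 ± 0.10 (adjusted p = 0.000409) under the threshold. Without replicate 1 of siMETTL3 with vehicle in 22Rv1 this change passed the threshold (0.63, adjusted p = 0.000106). SLC6A8 in siSCR LNCaP:C4-2 cells had 72.7, 87.4 and 60.9 RPKM with vehicle and 167, 93.2 and 107 RPKM with R1881 (log2 fold change 0.72, SE 0.20, adjusted p = 0.0157). Its groups did not overlap, but replicate 1 of the R1881 group, a library that stood apart, was by far the highest. Without that library the log2 fold change was 0.45 (adjusted p = 0.0697), and without replicate 1 or 3 of the vehicle group it was 0.71 and 0.61 (adjusted p = 0.0555 and 0.0685). With siMETTL3 the change of SLC6A8 in LNCaP:C4-2 was 0.29 ± 0.20 (adjusted p = 0.356).

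SLC6A6 in siMETTL3 LNCaP:C4-2 cells had 1.52, 0.926 and 1.46 RPKM with vehicle and 3.36, 2.64 and 2.19 RPKM with R1881, 2.11-fold higher without overlap (log2 fold change 1.08, SE 0.24, adjusted p = 0.00519). In siSCR LNCaP:C4-2 cells it had 1.92, 1.55 and 1.75 and 3.17, 1.75 and 1.66 RPKM, a log2 fold change of 0.32 ± 0.24 (adjusted p = 0.35). Without replicate 1 of siSCR with R1881, the highest library of that group, it was -0.02 (adjusted p = 0.953). In 22Rv1 SLC6A6 had 11.5, 10.2 and 9.55 RPKM with vehicle and 7.83, 7.31 and 8.14 RPKM with R1881, lower without overlap but under the fold threshold (log2 fold change -0.43, SE 0.09, adjusted p = 0.000854), and the change with siMETTL3 was -0.40 ± 0.09 (adjusted p = 0.00154). SLC1A3 had 1.09, 0.754 and 1.26 RPKM with vehicle and 0.803, 0.732 and 0.589 RPKM with R1881 in siSCR LNCaP:C4-2 cells, with overlapping ranges (log2 fold change -0.56, SE 0.25, adjusted p = 0.112). In siSCR 22Rv1 cells it had 3.21, 3.26 and 4.07 and 4.71, 4.73 and 4.77 RPKM, higher without overlap but under the fold threshold (log2 fold change 0.43, SE 0.09, adjusted p = 0.00118).

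The members that fell with R1881 in 22Rv1 were, beside SLC7A8, SLC3A1 and SLC43A2. SLC3A1 in siSCR cells had 38, 30 and 32 counts with vehicle and 16, 13 and 17 counts with R1881, 2.14-fold lower (log2 fold change -1.10, SE 0.30, adjusted p = 0.00715). With siMETTL3 it had 30, 42 and 41 and 25, 23 and 13 counts (log2 fold change -0.65 ± 0.28, adjusted p = 0.0845). SLC43A2 in siMETTL3 cells had 1.38, 1.34 and 1.33 RPKM with vehicle and 0.855, 0.908 and 0.789 RPKM with R1881, 1.62-fold lower without overlap (log2 fold change -0.69, SE 0.11, adjusted p = 4.21e-05). In siSCR cells it had 1.29, 1.33 and 1.19 and 0.954, 1.11 and 0.972 RPKM, lower by less than the threshold (log2 fold change -0.34, SE 0.11, adjusted p = 0.019). In siSCR LNCaP:C4-2 cells its log2 fold change was -0.36 ± 0.14 (adjusted p = 0.0794).

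The major leucine exchanger SLC7A5 was not called with R1881 in any comparison. In siSCR LNCaP:C4-2 cells it had 105, 103 and 99.5 RPKM with vehicle and 81.1, 64.1 and 70.1 RPKM with R1881. All R1881 libraries were lower than all vehicle libraries, but the change stayed under the fold threshold (log2 fold change -0.52, SE 0.11, adjusted p = 0.00337). Similar values were found for SLC7A6, from 3.98, 3.93 and 3.75 to 2.94, 2.71 and 2.42 RPKM (-0.54, SE 0.13, adjusted p = 0.00619), and for SLC1A4 and SLC6A9 (-0.49 ± 0.17 and -0.51 ± 0.18, adjusted p = 0.0488 and 0.055). Without both libraries that stood apart, 12 of 30 members tested were called in siSCR LNCaP:C4-2 cells, 7 higher and 5 lower, where 16.8% of all genes were called. The 5 lower members were then SLC7A5 (-0.60, adjusted p = 1.42e-06), SLC7A6 (-0.60), SLC1A4 (-0.63), SLC6A9 (-0.68) and the very low SLC38A3 (-3.15). Among the 7 higher members, SLC6A8 was no longer called, and SLC43A3, too low to be tested with all libraries, was (3.91, adjusted p = 0.0106). In siSCR 22Rv1 cells SLC7A5 had 746, 717 and 636 RPKM with vehicle and 688, 689 and 702 RPKM with R1881, with overlapping ranges. SLC3A2 had 52.3, 55.2 and 46.6 and 51.1, 39.6 and 44.1 RPKM in LNCaP:C4-2 and 242, 244 and 217 and 244, 243 and 248 RPKM in 22Rv1, and SLC7A11 had 19.4, 21.2 and 21.3 and 20.7, 22.7 and 23.2 RPKM and 33.6, 34.6 and 40.4 and 39.5, 39.4 and 38.8 RPKM in the same order. Neither was called. The other members not called with R1881 in any of the 4 comparisons were SLC1A2, SLC1A3, SLC1A5, SLC7A1, SLC7A2, SLC7A7, SLC38A1, SLC38A3, SLC38A5, SLC38A6, SLC38A7, SLC38A9 and SLC38A10.

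Whether the androgen response differed between the lines was tested as the difference of their log2 fold changes in siSCR cells, for which only the adjusted p (under 0.05) decided a call. Of 31 members, 12 were called, 4 with a higher and 8 with a lower value in 22Rv1, where 16.8% of all genes were called. The lower values were those of genes whose log2 fold change was higher in LNCaP:C4-2: SLC38A4, SLC7A8, SLC1A1, SLC36A1, SLC6A8, SLC6A6 and SLC43A1, with SLC43A3, which was at or near the floor in LNCaP:C4-2. The smallest adjusted p was that of SLC36A1, with a difference of -1.05 ± 0.14 (adjusted p = 5.51e-06). SLC43A1 rose in both lines, and its difference was -0.56 ± 0.11 (adjusted p = 0.00046). The higher values were those of SLC1A3, SLC38A9, SLC7A6 and SLC7A5, whose log2 fold changes were negative in LNCaP:C4-2. SLC7A5 differed by 0.50 ± 0.13 (adjusted p = 0.0103) and SLC38A9 by 0.72 ± 0.14 (adjusted p = 0.000713). The call of SLC7A5 was lost without replicate 2 of siSCR with R1881 in LNCaP:C4-2 (0.37, adjusted p = 0.0664) or replicate 3 of siSCR with vehicle in 22Rv1 (0.36, adjusted p = 0.0668). Of 12 fits that each left out 1 library, SLC7A6 lost its call in 9, SLC6A6 in 7 and SLC6A8 in 6, at adjusted p of at most 0.119, 0.156 and 0.089. With the GC offset 19 members were called, 11 higher and 8 lower, where 25.9% of all genes were. In the fit without both libraries that stood apart 14 were, 7 higher and 7 lower, against 18.8% of all genes. SLC6A6 was then no longer called (-0.48, adjusted p = 0.0899).

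**Figure D4:**
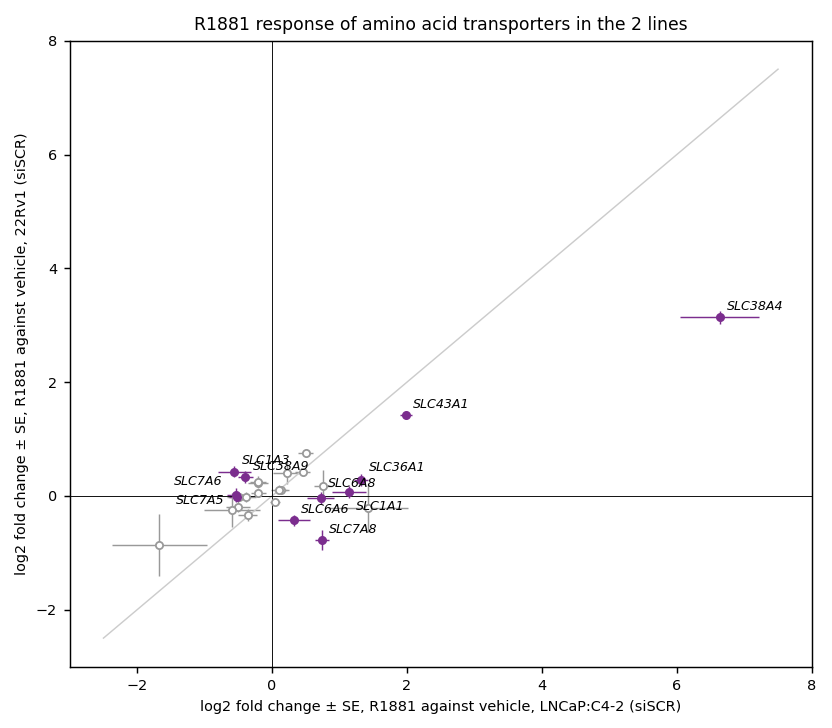
Log2 fold change of R1881 against vehicle in siSCR cells, LNCaP:C4-2 on the horizontal and 22Rv1 on the vertical axis, 1 point per member tested in both lines, with bars of 1 SE and filled points where the difference between lines was called. SLC38A4 at 6.64 and 3.14 and SLC43A1 at 1.98 and 1.43 lie up and to the right, and SLC7A8 at 0.74 and -0.78 lies to the right of and below zero. The grey diagonal marks equal values.

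What the METTL3 knockdown changed was tested in each line and treatment. With vehicle, edgeR called 0 of 29 members in LNCaP:C4-2, where 1.2% of all genes were called, and 0 of 30 in 22Rv1, where 0.202% were. At an unadjusted p under 0.05 there were 7 and 4 members, against 16% and 14.6% of all genes, and DESeq2 called 1 of 25 and 0 of 25 members with an adjusted p, against 2.51% and 0.359%. With R1881, 1 of 29 members fell in LNCaP:C4-2 (0.7% of all genes) and 1 of 30 rose in 22Rv1 (3.29% of all genes). The median log2 fold change over the members was -0.12 in LNCaP:C4-2 with vehicle and -0.05 with R1881, against 0.0014 and 0.0039 over all genes, and -0.0074 and 1.06e-04 in 22Rv1, against -0.0043 and -0.0228. The libraries of siSCR LNCaP:C4-2 cells had a count-weighted GC content of 48.5% to 49.7% and those of siMETTL3 cells of 48.5% to 50.3%. With the GC offset, 1 member, SLC6A8, was called in LNCaP:C4-2 with vehicle, where 2.51% of all genes were.

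**Figure D5:**
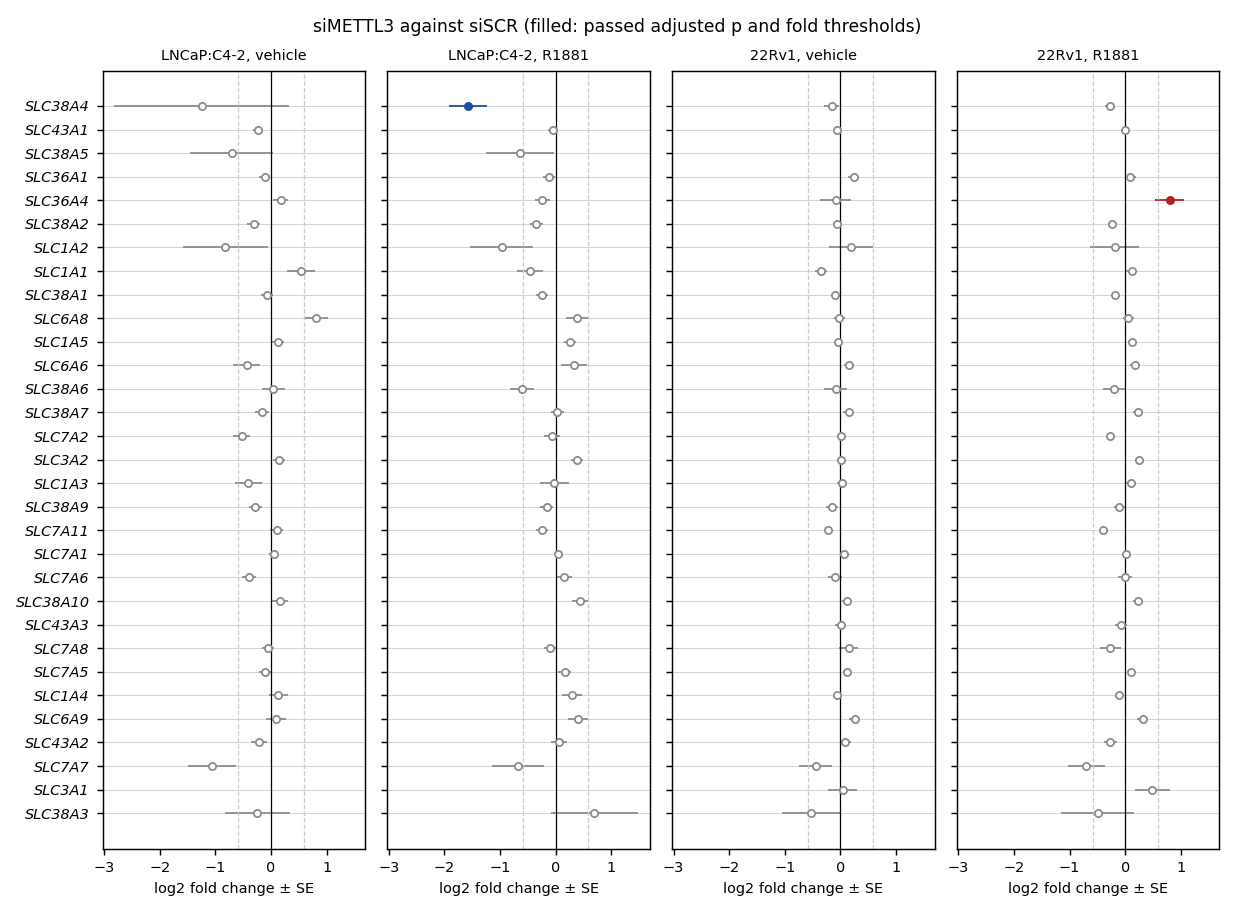
Log2 fold change of siMETTL3 against siSCR for the members tested, with vehicle and with R1881 in each line, with bars of 1 SE and filled points for called genes. Only SLC38A4 in LNCaP:C4-2 (-1.57) and SLC36A4 in 22Rv1 (0.80), both with R1881, are filled.

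The member that fell was SLC38A4. In LNCaP:C4-2 cells with R1881 it had 1.11, 1.99 and 1.43 RPKM with siSCR and 0.534, 0.328 and 0.653 RPKM with siMETTL3. Every siMETTL3 library was lower than every siSCR library, 2.97-fold (log2 fold change -1.57, SE 0.34, adjusted p = 0.0444). The call was lost when any of 5 of the 6 libraries was left out: without siSCR replicate 2 or 3 the log2 fold change was -1.32 and -1.62 (adjusted p = 0.261 and 0.152), and without siMETTL3 replicate 1, 2 or 3 it was -1.62, -1.35 and -1.81 (adjusted p = 0.195, 0.15 and 0.0731). Without both libraries that stood apart it was -1.77 (adjusted p = 0.000281). In 22Rv1 cells with R1881 SLC38A4 had 8.83, 9.97 and 9.61 RPKM with siSCR and 7.96, 7.55 and 8.26 RPKM with siMETTL3, also without overlap, with a log2 fold change of -0.27 ± 0.09 (adjusted p = 0.0508). The difference between the lines was 1.32 ± 0.29 (adjusted p = 0.0713), and it was called without both libraries that stood apart (1.501, adjusted p = 0.00482).

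SLC36A4 rose in 22Rv1 cells with R1881, from 0.211, 0.253 and 0.274 RPKM with siSCR to 0.396, 0.4405 and 0.463 RPKM with siMETTL3. All siMETTL3 libraries were higher, 1.74-fold (log2 fold change 0.80, SE 0.26, adjusted p = 0.0383). The call was lost when any of the 6 libraries was left out, which left changes of 0.70 to 0.89 on the log2 scale and adjusted p of 0.0743 to 0.119. In LNCaP:C4-2 with R1881 the gene had 3.41, 3.5002 and 4.09 RPKM with siSCR and 3.06, 3.004 and 3.22 RPKM with siMETTL3, and the difference between the lines was 1.06 ± 0.28 (adjusted p = 0.187), called without both libraries that stood apart (1.12, adjusted p = 0.036).

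SLC6A8, the creatine transporter, came near the threshold in LNCaP:C4-2. In LNCaP:C4-2 with vehicle it had 72.7, 87.4 and 60.9 RPKM with siSCR and 117, 155 and 121 RPKM with siMETTL3. The groups did not overlap, but the adjusted p missed the threshold (log2 fold change 0.81, SE 0.20, adjusted p = 0.0576). DESeq2 called it (adjusted p = 0.00592), as did the fit without both libraries that stood apart (0.89, adjusted p = 0.000534), where 4.18% of all genes were called. With R1881 the change was 0.39 ± 0.20 (adjusted p = 0.211). Without both libraries that stood apart, 4 of 30 members were called in LNCaP:C4-2 with R1881, where 11.3% of all genes were called: SLC38A4 and SLC38A6 lower (-1.77 and -0.74) and SLC6A6 and SLC6A8 higher (0.66 and 0.65). In 22Rv1 SLC6A8 had 10.6, 10.1 and 7.62 RPKM with siSCR and 8.31, 9.75 and 9.87 RPKM with siMETTL3, with overlapping ranges.

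In 22Rv1 with R1881, some abundant members passed the adjusted p with changes under the fold threshold. SLC7A11 had 39.5, 39.4 and 38.8 RPKM with siSCR and 28.5, 30.7 and 31.6 RPKM with siMETTL3, lower without overlap (log2 fold change -0.39, SE 0.07, adjusted p = 0.0024), and its log2 fold change with vehicle was -0.22 ± 0.07 (adjusted p = 0.177). SLC38A2 had 253, 242 and 260.1 and 203, 225 and 218 RPKM, lower without overlap, by -0.24 ± 0.07 on the log2 scale (adjusted p = 0.0317). SLC3A2 went the other way, by 0.26 ± 0.08 (adjusted p = 0.0253). In all, 6 of 30 members passed the adjusted p in this comparison, 3 higher and 3 lower, where 16.2% of all genes did.

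Whether the knockdown changed the androgen response was tested as the interaction of R1881 and siMETTL3. edgeR called 0 of 29 members in LNCaP:C4-2, where 0.0% of all genes were called, and 0 of 30 in 22Rv1, where 0.0168% were, with 7 and 5 members at an unadjusted p under 0.05, against 12.4% and 6.16% of all genes, and 0 and 0 by DESeq2, against 0.384% and 0.0224%. SLC6A6 in LNCaP:C4-2 had an interaction of 0.76 ± 0.34 (adjusted p = 0.388), and without both libraries that stood apart it was 1.22 (adjusted p = 0.0273), where 1.31% of all genes were called. SLC36A4 in 22Rv1 had 0.88 ± 0.38 (adjusted p = 0.81). The difference between the lines in the knockdown itself was called for 0 of 31 members with vehicle, where 0.458% of all genes were called, and for 0 with R1881, where 0.0926% were. At an unadjusted p under 0.05 there were 7 and 4 members, against 11.5% and 7.56% of all genes, and DESeq2 called 1 and 2, against 2.16% and 0.566%. The difference of SLC6A8 with vehicle was -0.85 ± 0.24 (adjusted p = 0.126), and -0.91 (adjusted p = 0.0148) without both libraries that stood apart.

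For SLC7A5, SLC7A11 and SLC38A4, the member with the largest R1881 change, the 3 genes with the most similar pattern were sought by Pearson correlation of the mean log2 CPM over the 8 conditions, among 15198 genes. They were ARMCX4 and SPINK1 (r = 0.9995 for both) and NHSL1 (0.9994) for SLC7A5, CLIC4 (0.9951), ENSG00000268362 (0.9917) and ZFP1 (0.9904) for SLC7A11, and BBS4 (0.9904), TIPARP (0.9893) and L3MBTL3 (0.9891) for SLC38A4. The 8 points come from the same 24 libraries and fall into 2 lines, so that a gene with a large line difference in the direction of SLC7A5 has a high r with it.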

How the data were processed

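RNA of 24 libraries from LNCaP:C4-2 and 22Rv1 cells (8 conditions, 3 libraries each) was sequenced by the study. Per the labels and the file headers, the authors trimmed reads with Trim Galore (cutadapt, FastQC), used STAR for alignment to GRCh38, and obtained fragment counts from featureCounts 1.5.0 with Ensembl 83 genes, without strand, dropping fragments that met several genes. The deposited values are raw counts of 60675 genes, 1 table per library, not normalized, of which 56558 were named through the reference table. The files hold 15716224 to 21306019 counts per library. The detection floor of 3 counts covers counting error only.

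The 32 members, the other gene lists and the rule for the genes named (all members, those called by library, and at most 3 called genes with the largest change per list and comparison) were chosen with earlier results of these data known. Counts were tested with edgeR 4.0.16 (R 4.3.3): TMM scaling, filterByExpr, 1 mean per condition and the quasi-likelihood test, over the 12 libraries of a line (8 residual degrees of freedom, 16435 genes in LNCaP:C4-2 and 17865 in 22Rv1), or over all 24 (16 degrees of freedom, 19437 genes) where the lines are compared. p-values were adjusted by Benjamini-Hochberg over all genes tested, and SE was taken as the size of the log2 value over the root of its F statistic. A gene was called at an adjusted p under 0.05 and a fold of at least 1.5, and interactions and line differences at the adjusted p alone. RPKM used TMM factors over the 24 libraries and the exon length in the files. The fit was tested on simulated data.

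Alternatives were DESeq2 1.42.0, RLE size factors in place of TMM, library size alone, no filter on low counts and a replicate block. Further ones were an offset for GC content (spline with 5 degrees of freedom), only the libraries compared, no fold threshold and leaving out each library. The alternative without both LNCaP:C4-2 libraries that stood apart was chosen after seeing the data. Promoter windows came from RefSeq on GRCh38.p14. Tables and figures used Python 3.11.15, pandas 2.3.3, numpy 2.4.6, scipy 1.17.1 and matplotlib 3.10.9.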

Additional observations from a re-analysis of the deposited data

Results flagged for a closer look

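The difference between 22Rv1 and LNCaP:C4-2 in the R1881 response of siSCR cells passed its own test for 12 of 31 members, where 16.8% of all genes were called. It was taken as a difference of log2 fold changes from edgeR's quasi-likelihood test over all 24 libraries. It was negative for SLC38A4 (-3.50, adjusted p = 0.000332), SLC7A8 (-1.52, adjusted p = 1.16e-05), SLC1A1 (-1.07, adjusted p = 0.0039), SLC36A1 (-1.05, adjusted p = 5.51e-06), SLC6A8 (-0.76, adjusted p = 0.0314), SLC6A6 (-0.76, adjusted p = 0.0419) and SLC43A1 (-0.56, adjusted p = 0.00046). It was also negative for SLC43A3 (-3.89, adjusted p = 0.0026), a value that rests on counts at or near the floor in LNCaP:C4-2 and is no bound. It was positive for SLC1A3 (0.98, adjusted p = 0.00581), SLC38A9 (0.72, adjusted p = 0.000713), SLC7A6 (0.55, adjusted p = 0.0249) and SLC7A5 (0.50, adjusted p = 0.0103). SLC38A4 in siSCR LNCaP:C4-2 cells with vehicle was at or under the floor, so that the size of its difference depends on the fit.

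The calls for SLC7A5, SLC7A6, SLC6A6 and SLC6A8 depended on single libraries. SLC7A5 was lost without LNCaP:C4-2 R1881 replicate 2 (0.37, adjusted p = 0.0664) or 22Rv1 vehicle replicate 3 (0.36, adjusted p = 0.0668). SLC7A6 was lost in 9 of 12 such fits, all but those without LNCaP:C4-2 vehicle replicate 3, LNCaP:C4-2 R1881 replicate 1 or 22Rv1 vehicle replicate 1, with a highest adjusted p of 0.119. SLC6A6 was lost in 7 of 12 fits, and without LNCaP:C4-2 R1881 replicate 1, a library that stood apart, it was -0.47 (adjusted p = 0.156). The other 6 were those without LNCaP:C4-2 vehicle replicate 2 or 3, 22Rv1 vehicle replicate 1 or 2 or 22Rv1 R1881 replicate 1 or 2 (adjusted p from 0.0608 to 0.0982). SLC6A8 was lost in 6 of 12 fits, without LNCaP:C4-2 vehicle replicate 3, LNCaP:C4-2 R1881 replicate 1 (-0.55, adjusted p = 0.0812), 22Rv1 vehicle replicate 1 or 2 or 22Rv1 R1881 replicate 1 or 2 (highest adjusted p 0.089). Groups of 3 libraries were not tested for single outlying libraries.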

How the results depend on the processing

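Without the fold threshold the members called with R1881 numbered 13 in siSCR LNCaP:C4-2 cells (7 with it), 12 in siSCR 22Rv1 cells (5), 15 in siMETTL3 22Rv1 cells (5) and, for the knockdown in 22Rv1 with R1881, 6 (1), where 24.8%, 33%, 33.1% and 16.2% of all genes were called. Scaling by library size alone gave 11 in siSCR LNCaP:C4-2 cells (16.6% of all genes). Without both LNCaP:C4-2 libraries that stood apart the count for R1881 with siSCR was 12 (16.8% of all genes). For the knockdown in LNCaP:C4-2 it was 1 with vehicle (4.18%) and 4 with R1881 (11.3%), and for the interaction 1 (1.31%). For the line difference in the knockdown it was 1 with vehicle (0.934%) and 2 with R1881 (0.608%). The knockdown in LNCaP:C4-2 with vehicle gave 1 with DESeq2 and with the GC offset (2.51% of all genes in both). It also gave 1 without the filter on low counts and with only the libraries compared. That with R1881 gave 2 with DESeq2, without the filter and with only the libraries compared. The line difference in the knockdown with vehicle gave 1 with DESeq2 (2.16%), 2 without the filter and 3 with the GC offset. That with R1881 gave 2 in each of these (0.566% with DESeq2). In these fits of the knockdown and of its line difference 0.179% to 11.3% of all genes were called, the only share given for counts without their own. The line difference in the R1881 response gave 19 with the GC offset (25.9% of all genes).

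Libraries with the same replicate number did not, on average, deviate together more than others. The mean correlation of same-numbered deviations was -0.017 in LNCaP:C4-2, where 6 of 18 pairs lay over 0.1, and -0.010 in 22Rv1, where 1 of 18 did. For different numbers it was 0.008 in LNCaP:C4-2, with 10 of 36 pairs over 0.1, and 0.005 in 22Rv1, with 3 of 36. Whether some libraries shared a batch was not tested. With a replicate block the knockdown in LNCaP:C4-2 with R1881 gave 0 members (SLC38A4 adjusted p = 0.0966), a count for which the share of all genes is not given. SLC1A2 and SLC7A7 were lost between the lines with this block (1.03 and 0.45, adjusted p = 0.185 and 0.338).

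Leaving out each library in turn gave 7 to 12 members for R1881 in siSCR LNCaP:C4-2 cells. In the fit with 12, without siSCR R1881 replicate 1, 14.6% of all genes were called. The knockdown in LNCaP:C4-2 gave 0 to 1 with vehicle and 0 to 4 with R1881. That in 22Rv1 with R1881 gave 0 to 0 (1 with all libraries), and each line difference in the knockdown gave 0 to 1. For these knockdown fits the shares of all genes are not given, so the counts cannot be set against them. METTL3 in LNCaP:C4-2 with vehicle was -0.61 with all libraries and under a threshold with the GC offset (-0.56), with only the libraries compared (-0.61, adjusted p = 0.054) and in 4 of 6 fits without 1 library (-0.66 to -0.55). With R1881 it reached the fold only without both libraries that stood apart (-0.65) or without siSCR R1881 replicate 1 (range -0.65 to -0.52). SLC6A6 with R1881 in siSCR LNCaP:C4-2 cells turned sign without both libraries (-0.0211) and ranged from -0.0203 to 0.49 without 1 library. The alternatives other than leaving out 1 library gave 705 values for 97 member results. Of these, 662 kept direction and side of the threshold, 30 passed it, 12 fell short and 1 turned sign. Leaving out 1 library lost further calls. Among them, for the knockdown with R1881, were SLC36A4 in 22Rv1 in 6 of 6 fits and SLC38A4 in LNCaP:C4-2 in 5 of 6. The cause was not tested.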

Other observations

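Genes that act on or sense amino acids were described beside the transporters, by edgeR's quasi-likelihood test with the same thresholds. The shares of all genes called were 15.1% for R1881 in siSCR LNCaP:C4-2 cells, 10.6% with siMETTL3, 13.8% in siSCR 22Rv1 cells, 13.5% with siMETTL3 and 59.2% between the lines. In the list of amino acid sensing upstream of mTORC1 (30 genes, 29 tested in 22Rv1), R1881 called 3 higher and 1 lower in siSCR LNCaP:C4-2 cells, 1 and 1 with siMETTL3, 3 and 0 in siSCR 22Rv1 cells and 1 and 1 with siMETTL3. MTOR, the kinase itself, rose in all 4, by log2 fold changes of 1.07, 1.12, 0.81 and 0.64 in that order, at mean levels of 9.49 ± 1.35 RPKM with vehicle and 19.99 ± 0.841 RPKM with R1881 in siSCR LNCaP:C4-2 cells (SD, n = 3). The leucine sensor family member SESN3 fell in LNCaP:C4-2 (-0.90 with siSCR and -1.09 with siMETTL3) and in siMETTL3 22Rv1 cells (-0.60). The Rag GTPase RRAGD rose in siSCR cells of both lines (0.95 and 0.59). No gene of this list was called in a knockdown comparison by edgeR, and between the lines 1 was higher and 10 were lower in 22Rv1 (median log2 fold change -0.39, against 0.03 over all genes).

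In the list of glutamine, branched-chain amino acid and glutathione enzymes (19 of 20 tested), R1881 called 4 higher and 3 lower in siSCR LNCaP:C4-2 cells, 2 and 2 with siMETTL3, 5 and 3 in siSCR 22Rv1 cells and 5 and 1 with siMETTL3. GCLC, the catalytic subunit of the enzyme that starts glutathione synthesis, went in opposite directions: it had 10.6 ± 0.722 RPKM with vehicle and 6.45 ± 0.2502 RPKM with R1881 in siSCR LNCaP:C4-2 cells and 10.4 ± 0.505 and 20.3 ± 0.446 RPKM in siSCR 22Rv1 cells. It fell in the first (log2 fold change -0.73, SE 0.10, adjusted p = 5.71e-05) and rose in the second (log2 fold change 0.96, SE 0.07, adjusted p = 1.76e-10), and the difference between the lines was 1.68 (adjusted p = 9.97e-12). GSR, glutathione reductase, rose in LNCaP:C4-2 (0.81 with siSCR), GPT2, a mitochondrial alanine transaminase, rose in siSCR cells of both lines (0.68 and 1.15), and BCAT1, a branched-chain transaminase, fell in LNCaP:C4-2 (-0.80). Without both libraries that stood apart, R1881 called 3 higher and 4 lower in siSCR LNCaP:C4-2 cells (16.8% of all genes). GPT2 was then no longer called there, and CBS was called lower (-0.65). With siMETTL3 that fit called GLS2 lower (-0.76) and no longer BCAT1 (-0.61 with all libraries), where 11.4% of all genes were called. The knockdown called 1 of these enzymes, GPT, higher in 22Rv1 with R1881 (0.75), where 3.29% of all genes were called. Without both libraries that stood apart, BCAT1 and ARG2 were called lower with vehicle (-0.63 and -0.61) and GPT and CBS higher with R1881 (0.61 and 0.90) in LNCaP:C4-2, where 4.18% and 11.3% of all genes were called. Between the lines 4 were higher and 5 lower in 22Rv1.

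In the amino acid response list (32 ATF4 targets and tRNA synthetases), R1881 called 3 higher and 3 lower in siSCR LNCaP:C4-2 cells, 0 with siMETTL3, 2 and 1 in siSCR 22Rv1 cells and 4 and 1 with siMETTL3. ATF5 fell in siSCR cells of both lines (-0.85 and -1.09). The knockdown with vehicle called 4 higher in LNCaP:C4-2, namely ATF3 (log2 fold change 1.07, SE 0.17, adjusted p = 0.00977), STC2 (0.88), DDIT3 (0.84) and TRIB3 (0.62), where 1.2% of all genes were called. Without both libraries that stood apart, 6 of 32 were called with vehicle (4.18% of all genes), adding NUPR1 and DDIT4, and 5 with R1881 (11.3% of all genes), namely CEBPB, NUPR1, DDIT4, STC2 and EIF4EBP1, all higher, where none was called with all libraries. In the same fit R1881 with siMETTL3 called ATF5 and SESN2 lower (-0.59 and -0.60, 11.4% of all genes). With siSCR it called 2 higher and 3 lower (16.8% of all genes), without DDIT4, which was called higher with all libraries (0.81). In 22Rv1 the knockdown called 0 with vehicle and 1, DDIT4 (0.60), with R1881, and the line difference in the knockdown with vehicle was called for 4, all lower in 22Rv1 (0.458% of all genes). Without both libraries that stood apart this line difference was called for 8, again all lower in 22Rv1 (0.934% of all genes). Between the lines 10 were higher and 6 lower in 22Rv1 (median 0.42, against 0.03 over all genes).

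Of 24 other amino acid transporters, 6 were tested in LNCaP:C4-2, 10 in 22Rv1 and 12 over both lines. SLC6A20, a proline carrier, fell with R1881 in LNCaP:C4-2 (adjusted p = 0.000279 with siSCR and 0.000125 with siMETTL3). SLC6A17 rose and SLC38A11 fell in 22Rv1 (1.38 and -2.61 with siSCR). PQLC2, a lysosomal exporter of cationic amino acids now named SLC66A1, rose in siSCR 22Rv1 cells (0.68). None was called in a knockdown comparison by edgeR, and 5 were higher and 4 lower in 22Rv1 than in LNCaP:C4-2.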
